A study of Mus musculus with 4 samples.

Results

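The TRIM (tripartite motif) family was examined in RNA sequencing of mouse testis as the 68 genes whose symbol is Trim, a number and at most 1 letter, out of 49492 gene rows in the deposited count table. TRIM proteins carry a RING domain that hands ubiquitin to target proteins, 1 or more B-box zinc fingers and a coiled coil, and many end in a PRY-SPRY domain that binds the target. Several are induced by interferon and restrict viruses or tune the RIG-I and Toll-like receptor pathways, while others are known from male germ cells, muscle, neurons or epithelia. The members were sorted by such background knowledge into 16 interferon-inducible genes, 8 germ-cell genes, 23 widely expressed genes and 19 genes known from other tissues, with Trim52 and Trim80 left without a class. Earlier results of these data were known when the classes were chosen.

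The 4 libraries came from testes of male C57BL/6J mice. All 4 samples are labelled as treated with LPS (lipopolysaccharide, a bacterial cell wall component). Of these, 2 carried a hairpin against Spry1, a feedback inhibitor of receptor tyrosine kinases, and are labelled Spry1 knockdown, and 2 carried a control hairpin and are labelled WT. Neither the dose and time of LPS, the age of the mice nor the way the hairpin was delivered is given in the sources used here. The series title places Spry1 downstream of Dmrt1 and upstream of NF-kB, which is the question behind the comparison. The headings of the count table read LPS_1, LPS_2, NC_1 and NC_2. They were taken to mean Spry1 knockdown (LPS) and control hairpin (NC), although LPS is in the titles of all 4 samples, and the contrast could instead be LPS against no LPS. The groups therefore keep the names LPS columns and NC columns. Whether the 2 libraries of a group are different mice is not labelled, so p-values rest on a spread between libraries that may be technical.

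Library totals ran from 17612342 to 22451132 counts, and TRIM members took 0.363% to 0.400% of them. Counts of Spry1 itself were 26 and 17 for the LPS columns and 45 and 41 for the NC columns (log2 fold change -0.82 ± 0.28 SE), which did not serve to assign the columns. All 50 markers on 6 lists of testis cell types were expressed above the filter on low counts. In bulk tissue, fewer cells of a type and less RNA per cell cannot be told apart, which holds for every difference below.

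Of the 68 members, 53 passed the filter and were tested, and the other 15 had no more than 8 counts in any library. Levels are given as CPM, a library's counts scaled by its TMM-adjusted total over the genes that passed the filter, and differences as log2 fold changes, positive where the LPS columns were higher. Calls were made where the adjusted p was below 0.05 (edgeR's quasi-likelihood test, Benjamini-Hochberg over all 20855 genes tested). In these terms 13 members rose, 7 fell and 33 were not called, where 15.2% of all genes tested rose and 16.3% fell, or 31.5% in either direction. Both LPS libraries lay above both NC libraries in 22 members and below them in 13, orders seen in 32.1% and 32.0% of all genes tested. The median log2 fold change was 0.09 over the tested members and 0.00 over all genes tested (0.0023 before rounding). Scaling by library size alone gave 16 higher and 4 lower members, so that 80.0% of member calls were higher against 65.0% with TMM scaling, beside 62.0% and 48.3% over all genes.

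The start regions of 8 interferon-inducible members hold the core letters of the interferon-stimulated response element (ISRE), a site bound by interferon regulatory factors, and are shown because 6 of the 9 interferon-inducible members that rose are among them. Windows of 250 bases before to 50 after the annotated start were taken from RefSeq (build GRCm38.p6) and searched on both strands for GAAANNGAAA, where N is any base. Each line gives the 170 bases before the start and the first 30 of the transcript, on the gene's own strand, with the match in capitals.
Trim5: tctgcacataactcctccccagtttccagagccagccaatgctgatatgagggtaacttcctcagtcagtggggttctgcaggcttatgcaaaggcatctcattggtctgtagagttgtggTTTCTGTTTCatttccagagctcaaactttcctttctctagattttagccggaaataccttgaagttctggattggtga
Trim12a: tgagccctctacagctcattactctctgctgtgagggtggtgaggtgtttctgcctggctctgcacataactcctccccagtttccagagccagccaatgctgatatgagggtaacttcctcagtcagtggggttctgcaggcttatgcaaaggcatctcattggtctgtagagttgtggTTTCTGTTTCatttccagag
Trim12c: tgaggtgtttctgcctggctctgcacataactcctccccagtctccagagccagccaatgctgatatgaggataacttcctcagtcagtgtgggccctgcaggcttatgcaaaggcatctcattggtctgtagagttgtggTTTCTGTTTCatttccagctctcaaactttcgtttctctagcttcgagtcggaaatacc
Trim34a: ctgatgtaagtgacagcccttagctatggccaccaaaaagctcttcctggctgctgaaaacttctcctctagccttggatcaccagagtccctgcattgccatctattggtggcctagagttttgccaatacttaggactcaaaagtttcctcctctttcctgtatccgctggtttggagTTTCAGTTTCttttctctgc
Trim30a: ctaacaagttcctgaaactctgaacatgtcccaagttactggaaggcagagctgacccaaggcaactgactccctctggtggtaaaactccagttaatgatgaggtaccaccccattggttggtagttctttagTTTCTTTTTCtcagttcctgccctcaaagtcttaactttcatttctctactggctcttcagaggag
Trim30d: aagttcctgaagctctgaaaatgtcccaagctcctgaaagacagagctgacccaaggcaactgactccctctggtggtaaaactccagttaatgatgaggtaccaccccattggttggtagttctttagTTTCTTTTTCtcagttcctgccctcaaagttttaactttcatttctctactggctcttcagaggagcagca
Trim21: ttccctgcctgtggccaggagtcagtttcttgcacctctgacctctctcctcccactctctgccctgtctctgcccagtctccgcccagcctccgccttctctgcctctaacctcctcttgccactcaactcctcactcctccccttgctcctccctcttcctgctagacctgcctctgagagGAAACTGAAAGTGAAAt
Trim26: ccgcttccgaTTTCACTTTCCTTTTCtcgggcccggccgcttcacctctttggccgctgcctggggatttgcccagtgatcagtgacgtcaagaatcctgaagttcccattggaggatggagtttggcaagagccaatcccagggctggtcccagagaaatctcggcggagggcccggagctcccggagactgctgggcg

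These windows are chr7:104288077-104288276 for Trim5, chr7:104315466-104315665 for Trim12a, chr7:104353320-104353519 for Trim12c, chr7:104465164-104465363 for Trim30a, chr7:104507820-104508019 for Trim30d and chr7:102565453-102565652 for Trim21, all on the minus strand. Trim34a, at chr7:104244287-104244486, and Trim26, at chr17:36836976-36837175, are on the plus strand. Trim30a has another window, at chr7:104446096-104446295, that also holds 1 match. Trim21 and Trim26 hold 2 matches that overlap each other. Counting the first base of the transcript as 0, the match begins at -49 in Trim5, -29 in Trim12c, -36 in Trim30a, -41 in Trim30d, 10 in Trim12a and Trim34a, 13 in Trim21 and -160 in Trim26.

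The windows are not independent of each other, since several belong to paralogues. The full windows of Trim5 and Trim12a share an identical run of 241 bases, with the start annotated at a different place in it, and both share a run of 71 bases with Trim12c. Those of Trim30a and Trim30d share 118 bases. A window was found for 53 of the 68 members, 15 of the 16 interferon-inducible ones among them. The ISRE core was in 8 of those 15, in 1 of 16 widely expressed members (Trim2) and in 0 of 6 germ-cell members, 0 of 14 members of other tissues and 0 of 2 without a class. It was in 3.44% of all 32851 windows, a rate per window, whereas a member with several windows was counted where any of them held the letters. The CRE site TGACGTCA, bound in spermatids by CREM, was in 2 of the 53 members (Trim26 and Trim52) and 1.79% of windows. Of the 8 interferon-inducible members with the ISRE core, 6 rose, where 15.2% of all genes tested rose, and Trim12c and Trim30d were not called. Trim2, the other member with the core, was not called either (log2 fold change 0.23 ± 0.30 SE). Trim12a, which rose, and Trim30d passed the filter on low counts only through the LPS columns. Among tested interferon-inducible members whose window lacks these letters, Trim34b and Trim56 rose and Trim6, Trim25 and Trim38 were not called.

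Interferon-inducible members were mostly higher in the LPS columns. Of 14 tested, 9 rose, 0 fell and 5 were not called, with a median log2 fold change of 0.90, where 15.2% of all genes tested rose. No member of the class was lower at an unadjusted p under 0.05 in edgeR, and 0 were called lower by DESeq2 or limma-voom, while DESeq2 called 5 higher and limma-voom 9. The largest rises, from 2.21 times in Trim34a to 3.54 times in Trim5, were in 6 genes of low level on chromosome 7, and smaller ones were seen in Trim56, Trim26 and Trim14, which lie elsewhere. Both LPS libraries lay above both NC libraries in 12 of the 14, again beside 32.1% of all genes tested. Trim12a and Trim30d, both among these 12, passed the filter on low counts only through the LPS columns, so their direction was tied to being tested.

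**Figure D1:**
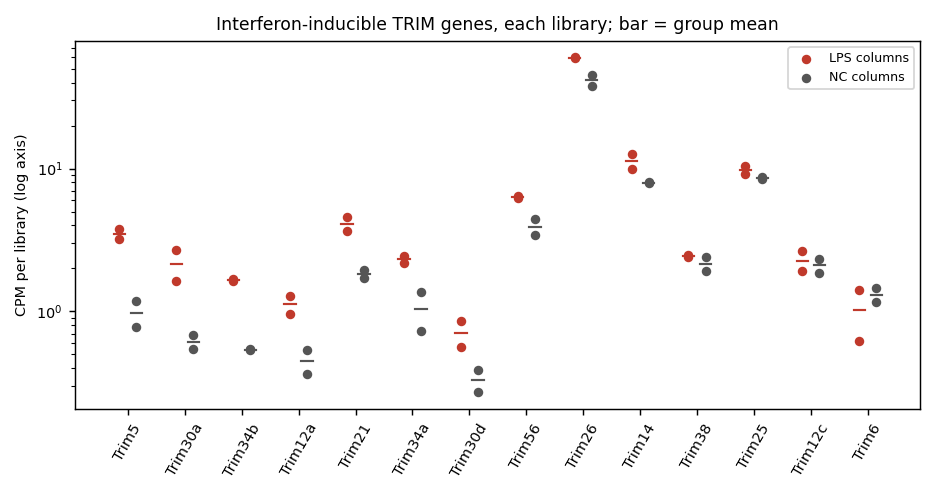
CPM of the 14 tested interferon-inducible TRIM genes in each library on a log axis, in order of log2 fold change, with LPS columns in red and NC columns in grey, a point per library and a bar at the group mean. The groups overlap only in Trim12c and Trim6, at the right, and Trim26 has the highest level.

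Trim5, a mouse relative of the retrovirus restriction factor TRIM5-alpha, was at 3.75 and 3.19 CPM in the LPS columns and 1.18 and 0.780 CPM in the NC columns. The groups were well apart, at 3.54 times the NC level, and Trim5 rose by 1.81 ± 0.25 (log2, SE; adjusted p = 6.16e-07). Trim30a, an inhibitor of Toll-like receptor signalling through TAB2 and TAB3, was at 1.62 and 2.69 CPM against 0.545 and 0.682 CPM. Its LPS libraries differed from each other more than those of Trim5 but both exceeded the NC libraries, and it rose by 1.79 ± 0.33 (adjusted p = 5.03e-05).

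Trim21, a cytosolic receptor for antibody-coated virus, was at 3.65 and 4.59 CPM against 1.95 and 1.71 CPM. It rose by 1.16 ± 0.21 (adjusted p = 5.16e-05), to 2.25 times the NC level, and lies on chromosome 7 from 102557921 to 102565486 (mm10), well apart from the Trim5 cluster. Trim34b was at 1.62 and 1.68 CPM against 0.545 and 0.536 CPM, with libraries of a group close together, and rose by 1.60 ± 0.34. Trim34a was at 2.43 and 2.18 CPM against 0.727 and 1.36 CPM and rose by 1.16 ± 0.28. Its NC libraries differed almost as much from each other as the nearer one did from the LPS libraries.

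Trim12a was at 0.964 and 1.29 CPM against 0.363 and 0.536 CPM and rose by 1.31 ± 0.39 (adjusted p = 0.00959), from 8 and 11 counts to 19 and 23. The calls of Trim12a and Trim34a rested on single libraries. Trim12a came to 1.10 without LPS replicate 2 (adjusted p = 0.135) and 1.06 on leaving out NC replicate 1 (adjusted p = 0.144), and its adjusted p ran from 0.00480 to 0.212, the highest from DESeq2. Trim34a came to 0.77 (adjusted p = 0.0782) when NC replicate 1 was left out and 1.66 when NC replicate 2 was, with adjusted p from 0.000141 to 0.0944.

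Outside chromosome 7, Trim26, which acts on IRF3 and lies in the MHC region, was at 59.0 and 59.97 CPM against 44.9 and 38.1 CPM. It is the most abundant of the class per length, at 7.35 CPM per kb, and rose by 0.52 ± 0.07 (adjusted p = 4.72e-07). Trim56, an antiviral ligase linked to STING, was at 6.44 and 6.27 CPM against 4.41 and 3.41 CPM and rose by 0.70 ± 0.16, with 0.0599 from DESeq2 the highest of its adjusted p values (lowest 0.000171). Trim14, an adaptor of the mitochondrial antiviral protein MAVS, was at 9.89 and 12.6 CPM against 7.998 and 7.894 CPM and rose by 0.49 ± 0.13. Without LPS replicate 2 it was at 0.32 (adjusted p = 0.118, range 7.02e-05 to 0.118), and 31.3% of its exon length overlaps the opposite-strand gene Nans, whose own log2 fold change was -0.01 ± 0.10.

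Trim25, the ligase that activates RIG-I, was at 9.13 and 10.4 CPM against 8.73 and 8.43 CPM, and its log2 fold change of 0.18 ± 0.12 was not called. Trim38 was at 2.49 and 2.41 CPM against 1.91 and 2.39 CPM (0.19 ± 0.23). Trim6 was at 1.42 and 0.616 CPM against 1.45 and 1.17 CPM (-0.34 ± 0.33), with 0.11 without LPS replicate 2 and -1.09 without LPS replicate 1. The groups overlapped in Trim6 and lay just apart in Trim25 and Trim38. Trim30b had 1 and 1 counts against 2 and 3 and Trim30c had 0 in every library, which allows up to 0.136 to 0.168 CPM, so that neither could be tested.

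Within 289 kb of chromosome 7 (104218793 to 104507849 in mm10), 10 members lie in the order Trim6, Trim34a, Trim5, Trim12a, Trim34b, Trim12c, Trim30b, Trim30c, Trim30a and Trim30d. Of the 8 tested, 5 rose, 0 fell and 3 were not called (Trim6, Trim12c and Trim30d), beside 15.2% of all genes tested that rose and 16.3% that fell. Trim12a and Trim30d were tested only through their counts in the LPS columns. The members that rose were not a single block, since Trim12c, Trim30b and Trim30c lie between Trim34b and Trim30a. Trim12c was at 2.64 and 1.904 CPM against 1.86 and 2.34 CPM, with overlapping groups and a log2 fold change of 0.13 ± 0.24, and its sign turned to -0.14 without LPS replicate 1 and to -0.03 without NC replicate 1. Trim30d was at 0.862 and 0.560 CPM against 0.273 and 0.390 CPM, with groups apart but few counts (1.11 ± 0.47, adjusted p = 0.0667), and passed with the stricter filter (adjusted p = 0.0467, range over alternatives 0.0467 to 0.470).

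**Figure D2:**
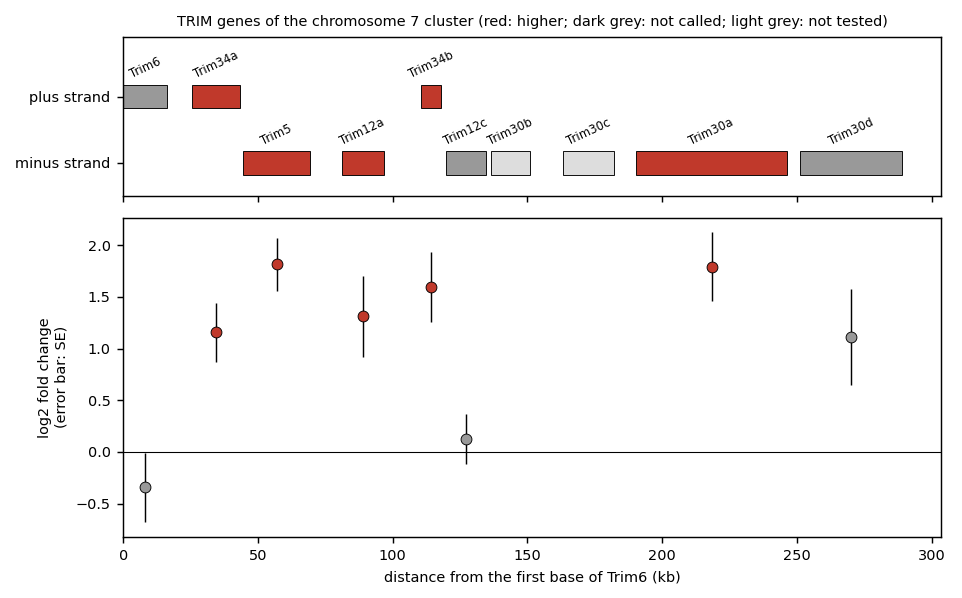
The 10 TRIM genes of the chromosome 7 cluster by distance in kb from the first base of Trim6, with gene bodies by strand above and the log2 fold change with its SE below. Red genes rose, dark grey genes were tested and not called, and light grey genes were too low to test. Trim6 and Trim12c sit near or below 0 and the other 6 tested genes between 1.11 and 1.81.

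Neighbouring copies were also compared within each library, as the share of a pair's counts. Trim12a gave 26.8% (95% Wilson interval 17.9% to 38.1%) and 40.4% (28.6% to 53.3%) of the counts of Trim12a and Trim12c in the LPS columns, and 16.3% (8.51% to 29.0%) and 18.6% (10.7% to 30.4%) in the NC columns. Its share was higher in both LPS libraries, but the intervals, which cover counting error only, overlap, and the exact two-sided permutation test gave p = 0.333, the smallest possible with 2 libraries against 2. For Trim5 among Trim5 and Trim12c the shares were 58.7% and 62.6% against 38.8% and 25%, with the same permutation p of 0.333. Trim34a took 48 of 80 and 39 of 69 counts of the Trim34 pair against 16 of 28 and 28 of 39, mean shares of 58.3% and 64.5% with overlapping libraries (exact permutation p = 0.667). Trim30a took 65.3% and 82.8% of the counts of Trim30a and Trim30d against 66.7% and 63.6%, also overlapping (exact permutation p = 0.667). Trim12a and Trim30d passed the filter on low counts only through the LPS columns. The shares use the same counts as the calls and are no separate support for those calls.

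These copies are uncertain where their sequences are the same. Of the 50-base stretches in GENCODE M21 transcripts, 56.8% of those of Trim34b also occur in Trim34a and 39.8% of those of Trim34a in Trim34b. Trim5 shares 36.3% of its stretches with other genes, Trim12c among them at 23.5%, and Trim12c shares 33.0%. For Trim12a the share was 10.4%, for Trim30d 7.49% and for Trim30a 5.98%. How reads that match several genes were counted is not given in the sources used here. The library kit was stranded, but the strand setting of the counting is not given, and 23.5% of the exon length of Trim34a overlaps the opposite-strand gene RP24-125B17.2.

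Marker genes of leukocytes and macrophages moved in both directions. Of 12 such markers, 7 rose and 2 fell, where 15.2% of all genes tested rose and 16.3% fell. Those that fell were Csf1r (-0.74 ± 0.14) and Mrc1 (-0.67 ± 0.10). Among those that rose, Cd14 and Fcer1g passed the filter on low counts only through the LPS columns. The summed level of the 12 was 93.6 and 107.7 CPM in the LPS columns against 57.5 and 64.3 CPM in the NC columns, with no marker at 0. Of 3 tested neutrophil markers 2 rose, S100a9 and Mpo, and both passed the filter on low counts only through the LPS columns. S100a9 had 35 and 32 counts against 0 and 0, whereas Ly6g had 0 and 0 against 4 and 6 and was not tested. Csf3r was not called. Summed levels over the 7 on the list were 3.96 and 4.42 CPM against 1.41 and 1.80 CPM. Of 3 tested lymphocyte markers 2 fell, of which Ighm passed the filter only through the NC columns. The part of these cells in the TRIM differences was not tested.

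Genes around the TRIM ligases in the interferon response rose in part. Of 11 tested genes of interferon signalling, 6 rose and the other 5 were not called, where 15.2% of all genes tested rose. The median log2 fold change was 0.62, and those that rose include the transcription factors Stat2, by 1.35 ± 0.13, and Irf1, by 1.35 ± 0.18. Ifnb1 and Ifng, the interferon genes on the list, had 0 counts in every library. All 5 listed genes of ISG15 conjugation, a ubiquitin-like pathway, rose, with Ube2l6, its conjugating enzyme, up by 2.05 ± 0.18. With DESeq2 the calls of Uba7 and Usp18 on this list were lost (adjusted p = 0.0558 and 0.0625). Isg15, Uba7 and Usp18 passed the filter on low counts only through the LPS columns. Of 14 genes of RNA and DNA sensing, 5 rose and 9 were not called, again beside 15.2% of all genes tested that rose. Those that rose include the RNA sensors Ifih1, by 1.59 ± 0.25, and Ddx58 (RIG-I), by 1.30 ± 0.19. Mavs, the partner of TRIM14 (0.20 ± 0.12), and Tmem173, which encodes STING (-0.22 ± 0.37), were not called.

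Of 13 ubiquitin-activating and -conjugating enzymes that serve RING ligases, 4 rose and 2 fell, with a median of 0.03, beside 15.2% and 16.3% of all genes tested. Of those that rose, Uba1 and Uba6, which activate ubiquitin, were not called without LPS replicate 2 (adjusted p = 0.132 and 0.0763), and Ube2d1, a conjugating enzyme, not without LPS replicate 1, without NC replicate 1 or with DESeq2 (highest adjusted p = 0.267). Ube2v2, a partner of the K63-chain enzyme Ube2n, fell by 0.29 ± 0.08 (adjusted p = 0.00428), a call lost without NC replicate 1 and with DESeq2 (highest adjusted p = 0.0805, lowest 0.00172). Of 5 tested TRIM proteins that go by other symbols, 1 rose, which was Pml (TRIM19), the organiser of PML nuclear bodies. It was at 3.40 and 3.58 CPM against 2.09 and 2.05 CPM and rose by 0.75 ± 0.21, with adjusted p from 0.00275 to 0.153 over the alternatives, the highest from DESeq2.

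Levels per exon length differed between classes. Tested germ-cell members had a median of 32.4 CPM per kb, widely expressed members 5.91, interferon-inducible members 0.598 and members of other tissues 0.546. The 5 highest members were Trim17, Trim36, Trim80, Trim37 and Trim41, at 168.2, 121.8, 116.2, 110.7 and 63.7 CPM per kb. Together they held 64.7% of all counts of the family. The mean levels of Trim36, Trim80 and Trim37 changed order between the groups. They were 119.5, 111.5 and 122.3 CPM per kb in the LPS columns and 124.2, 121.0 and 99.1 in the NC columns. Within LPS replicate 2, however, Trim36 still lay above Trim37, and neither Trim36 nor Trim80 was called.

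**Figure D3:**
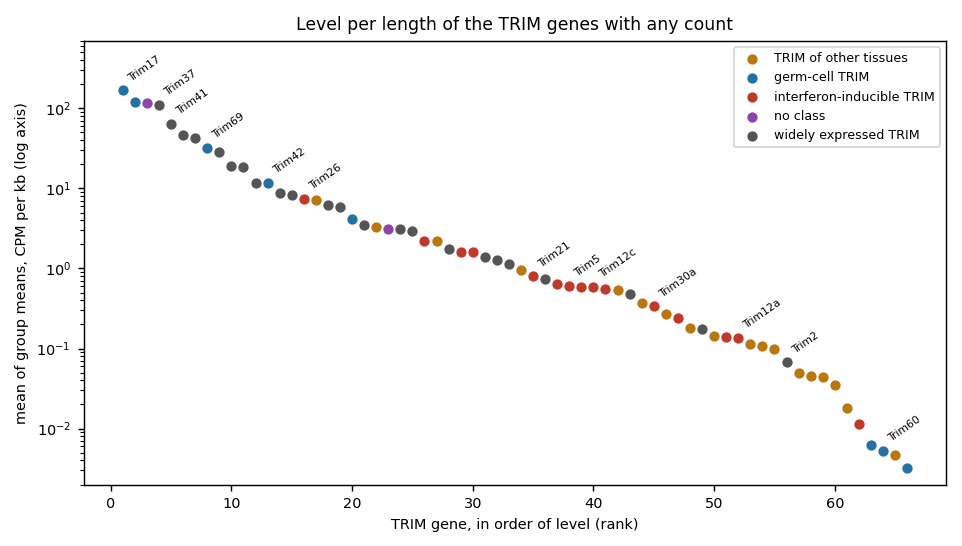
Mean level in CPM per kb of exon length (log axis) of the 66 TRIM genes with any count, in order of level and coloured by class, with some genes named. Germ-cell members fall into a high group from Trim17 at 168.2 to Trim66 at 4.16 CPM per kb and 3 genes with at most 1 count at the right, and most interferon-inducible members lie under 1 CPM per kb.

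Germ-cell members differed little between the groups. Of 5 tested, 0 rose, 2 fell and 3 were not called, with a median of -0.06, where 16.3% of all genes tested fell. No member of the class was higher at an unadjusted p under 0.05 in edgeR, and DESeq2 and limma-voom called 0 higher. Trim17, a neuronal and testis ligase, was at 571.2 and 608.9 CPM against 677.8 and 655.5 CPM, with both LPS libraries lower, and fell by 0.18 ± 0.05 (adjusted p = 0.00715). Trim42 was at 24.7 and 27.6 CPM against 30.8 and 31.7 CPM and fell by 0.26 ± 0.08 (adjusted p = 0.0122).

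Both of these calls depended on scaling and on single libraries. Scaled by library size alone, Trim17 was at -0.11 and Trim42 at -0.20, each with adjusted p = 0.0597. Without LPS replicate 1 they were at -0.13 (adjusted p = 0.0825) and -0.18 (adjusted p = 0.187). Trim17 was also lost on leaving out NC replicate 1, at -0.15 (adjusted p = 0.0745), and Trim42 on leaving out NC replicate 2, at -0.24 (adjusted p = 0.0759), and their adjusted p ran from 0.000906 to 0.0825 and from 0.00585 to 0.187. DESeq2 did not call Trim42. The Trim17 row shares 18.9% of its exon length with the same-strand histone gene Hist3h2a, which had a log2 fold change of 0.18 ± 0.11, and Trim42 shares 20.1% with the opposite-strand Gm15891 (-0.19 ± 0.13).

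Trim36, found in the sperm acrosome, was at 550.6 and 608.0 CPM against 616.5 and 587.8 CPM, with overlapping groups (-0.06 ± 0.05). Trim69 was at 59.6 and 62.9 CPM against 59.1 and 63.2 CPM (0.00 ± 0.06), and Trim66, a relative of the chromatin regulators Trim24, Trim28 and Trim33, at 42.8 and 43.3 CPM against 40.8 and 41.7 CPM (0.06 ± 0.07). None of the 3 was called, although the groups did not overlap in Trim66. Trim60, Trim61 and Trim75, neighbours within 37.7 kb of chromosome 8, had at most 1 count in any library and could not be tested.

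Most markers of spermatids fell, and of the 5 tested germ-cell members Trim17 and Trim42 were called lower. Of 10 elongating spermatid markers 7 fell and 3 were not called, where 15.2% of all genes tested rose and 16.3% fell. Their summed level was 26700 and 26640 CPM in the LPS columns against 35090 and 34360 CPM. Of 8 round spermatid markers 6 fell and 1 rose, and of 8 spermatogonium markers 4 rose and 4 were not called. Of 8 spermatocyte markers 2 rose and 2 fell, with a median of 0.03. Of 8 Sertoli markers 4 rose, and of 8 Leydig markers 5 fell and 1 rose. No marker of these lists was at 0 in all libraries. The part of a change in germ-cell makeup in the TRIM values was not tested.

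Most widely expressed members were not called. All 23 were tested, 4 rose, 1 fell and 18 were not called, beside 15.2% and 16.3% of all genes tested that rose and fell. The median was 0.02, and 22 had a log2 fold change under 0.35 in size. Scaling by library size alone gave 6 higher and 0 lower. Trim37, a peroxisome and centrosome ligase that is also known from the testis, had the most counts of the family, at 865.2 and 898.9 CPM against 719.6 and 710.9 CPM. Its groups were far apart relative to their spread, and it rose by 0.30 ± 0.05 (adjusted p = 9.07e-06), with adjusted p between 4.40e-12 and 2.60e-05 over the alternatives. Trim11, at 110.3 and 111.7 CPM against 91.0 and 94.5 CPM, and Trim35, at 35.9 and 38.9 CPM against 30.5 and 29.5 CPM, rose by 0.26 ± 0.06 and 0.31 ± 0.08, calls that remained under every alternative tried.

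Trim47 was the exception in size, at 6.80 and 4.70 CPM against 3.45 and 3.95 CPM, a rise of 0.65 ± 0.18 (adjusted p = 0.00480). Without LPS replicate 1 the log2 fold change was 0.35 (adjusted p = 0.239, range 5.89e-05 to 0.239), and DESeq2 did not call it either (adjusted p = 0.132). The member that fell was Trim27, a ligase abundant in testis, at 199.5 and 205.8 CPM against 234.3 and 224.0 CPM (-0.18 ± 0.05, adjusted p = 0.00931). Like Trim17 it was not called when scaled by library size alone (-0.11), nor without LPS replicate 1 or NC replicate 1, with adjusted p from 0.00455 to 0.139. The chromatin co-repressors Trim28, Trim24 and Trim33 were at -0.07 ± 0.05, -0.03 ± 0.05 and -0.06 ± 0.07 and were not called. Over the alternatives Trim24 ran from -0.04 to 0.03 and Trim33 from -0.13 to 0.01.

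**Figure D4:**
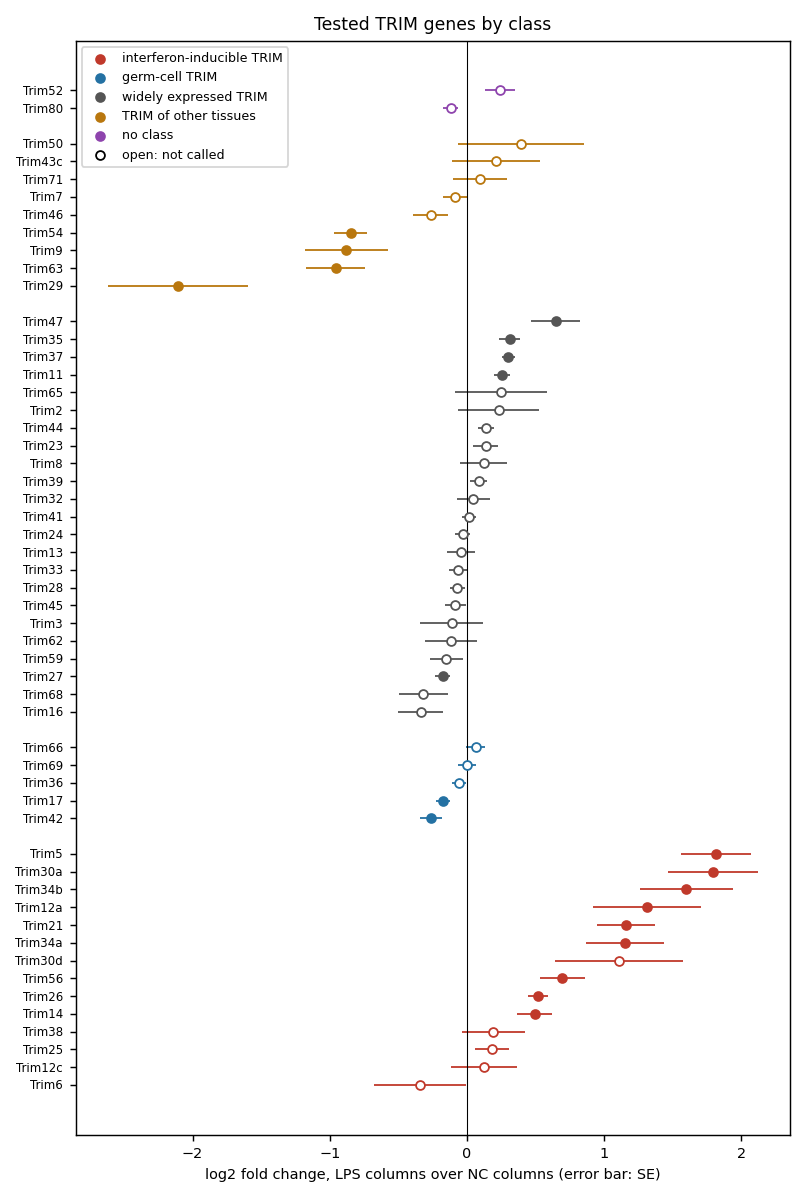
Log2 fold change of the LPS over the NC columns with its SE for the 53 tested TRIM genes, grouped and coloured by class, with filled points for called and open points for uncalled genes. Interferon-inducible members extend to the right up to 1.81 for Trim5, widely expressed and germ-cell members lie close to 0, and 4 members of other tissues lie at -0.85 or lower. Trim12a, Trim30d and Trim50 passed the filter on low counts only through the LPS columns, and Trim29 only through the NC columns.

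Members known from other tissues were mostly low, with a median of 0.546 CPM per kb over the 9 tested, and Trim54 was the highest at 7.175. Of the 9 tested, 4 fell and 0 rose, where 16.3% of all genes tested fell. Trim29, 1 of the 4, passed the filter on low counts only through the NC columns, and Trim50, which was not called, only through the LPS columns. No member was higher at an unadjusted p under 0.05 in edgeR or called higher by DESeq2 or limma-voom, and DESeq2 called 1 lower where limma-voom called 4. Trim54 and Trim63, the muscle RING finger genes MuRF3 and MuRF1, were at 7.66 and 7.05 CPM against 13.6 and 12.9 CPM, and at 1.93 and 1.79 CPM against 3.50 and 3.75 CPM. Their means in the LPS columns were 0.555 and 0.513 of those in the NC columns, with no overlap, and they fell by 0.85 ± 0.12 and 0.96 ± 0.21. The opposite-strand gene Gm15469, which overlaps 26.6% of the exon length of Trim54, also fell, by 0.75 ± 0.12, and reads of the pair cannot be told apart unless the counting used strand. Trim63 had adjusted p = 0.0548 with DESeq2, the highest over its alternatives, and 0.000131 as the lowest.

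Trim29, an epithelial member without a RING domain, was counted 4 and 3 times in the LPS columns against 18 and 17 times, a fall of 2.11 ± 0.51 (adjusted p = 0.00148). Trim29 passed the filter on low counts only through the NC columns, so its direction was tied to being tested. DESeq2 gave it no adjusted p, and the other alternatives gave 0.000554 to 0.0288. Trim9, a neuronal ligase, was at 0.913 and 0.952 CPM against 1.545 and 1.9 CPM and fell by 0.88 ± 0.30 (adjusted p = 0.0231). That call was lost on leaving out LPS replicate 1, where the adjusted p was 0.0958, LPS replicate 2, where it was 0.0722, and NC replicate 2, where it was 0.194. It was also lost with DESeq2, which gave the highest value of its range, 0.0180 to 0.298. Of 5 peritubular muscle markers 4 rose and 1 was not called, where 15.2% of all genes tested rose. The part of these cells in the Trim54 and Trim63 values was not tested. The summed level of 5 epididymis markers was 4.92 and 4.31 CPM against 5.86 and 5.60 CPM, with Lcn5 at 0 in every library, and its part in the Trim29 value was not tested.

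Among other neighbouring members, directions were mixed. On chromosome 11, Trim17 and Trim11 lie in a stretch of 351 kb with the barely detected Trim58, and 1 fell and 1 rose. In the MHC region of chromosome 17, 6 members lie within 651 kb, of which Trim26 rose, Trim39 was not called (0.09 ± 0.06), and Trim10, Trim15, Trim31 and Trim40 had at most 3 counts in any library. The copies Trim43a, Trim43b and Trim43c on chromosome 9, known from the early embryo, had 1 to 25 counts per library, and Trim43c, the 1 that was tested, was at 0.21 ± 0.32. Trim80 on chromosome 11, one of the 5 highest by level, was at 202.2 and 228.9 CPM against 237.2 and 230.7 CPM (-0.12 ± 0.06, adjusted p = 0.107), and was called without LPS replicate 2 (-0.21, adjusted p = 0.00777, range over alternatives 0.00777 to 0.772).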

How the data were processed

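The authors deposited raw read counts per gene in 1 table whose leading columns are those of featureCounts, per the file headers, and the gene length in bases used for levels per kb is their deposited Length column. Per the submitters' processing notes the tools were STAR 2.5.3a, Subread 1.5.1 (featureCounts), Trimmomatic 0.36, DESeq and edgeR 3.12.1, named without roles, with build mm10. Libraries were stranded per the labels' protocols. The annotation release, the strand setting and any use of molecular identifiers were not stated.

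Counts were filtered with filterByExpr, scaled by TMM and tested with edgeR 4.0.16 (quasi-likelihood test, 2 residual and 34 prior degrees of freedom, Benjamini-Hochberg over all genes). The SE is that implied by the F statistic. The fit was tested on simulated data with known changes. Alternatives were DESeq2 1.42.0, limma-voom (limma 3.58.1), other scalings and filters, a replicate block and leaving out each library. All 68 members matched a protein-coding gene in GENCODE mouse release M21, 63 with the same coordinates. A further motif that was searched is not reported here. Members, classes, lists and motifs were chosen with earlier results of these data known. Values were given for all interferon-inducible and germ-cell members, other members called with a log2 fold change of at least 0.5, the 5 highest by level and compared neighbours. Replicates differed by more than sampling noise (chi-square per degree of freedom 2.31 and 2.20) and were kept apart. Intervals and the floor of 3 counts cover counting error only.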

Additional observations from a re-analysis of the deposited data

How the results depend on the processing

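Over 11 alternatives, the 27 TRIM genes named for their class, size of change or level kept direction and side of the threshold in 263 of 296 values, and 7 of the 17 called ones kept their call in all 11. Trim29 kept it in 10, and DESeq2 gave it no adjusted p. DESeq2 called 1372 genes higher and 1752 lower, and of the members 8 higher and 3 lower, with 5 interferon-inducible ones higher and 1 germ-cell one lower. Library-size scaling alone left 4 members lower, 0 of them germ-cell and 0 widely expressed. Leaving out 1 library gave 3 to 7 members lower (3 without LPS replicate 1), 0 to 2 germ-cell members lower (0 without LPS replicate 1) and 0 to 1 widely expressed members lower. The sign reversed in genes that were not called: Trim12c (-0.14 to 0.33 on leaving out 1 library), Trim6 (-1.09 to 0.11), Trim36 (-0.13 to 0.0148, and 0.0068 with library size), Trim69 (-0.038 to 0.0529) and Trim41 (-0.0124 to 0.052). The replicate block gave 14 members higher and 7 lower. Deviations of same-numbered libraries had a correlation of 0.0155 across genes, and the labels give the numbers no meaning, so the block was not used for the results. With 1 library left in a group, its spread was taken from the other group. Low counts limit the chromosome 7 cluster and Trim29.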
